A study of Homo sapiens with 30 samples.

Results

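The genes described here are 10 actin and tubulin genes, chosen by symbol from the gene count tables of 8 RNA libraries: the cytoplasmic actins ACTB and ACTG1, the alpha-tubulins TUBA1A, TUBA1B and TUBA1C, the beta-tubulins TUBB, TUBB2A, TUBB2B and TUBB4B, and the gamma-tubulin TUBG1. They are 10 of the 27630 genes in the tables, each of them was found by its symbol, and each passed the filter on low counts that left 16504 genes for testing. The rule itself uses symbols and no measured value. The study concerned what lies next to the nuclear lamina, a meshwork of lamin filaments lining the inside of the nuclear envelope, and used APEX2, an engineered peroxidase that tags nearby molecules, fused to lamin B1. RNA came from HEK293FT, a human embryonic kidney line, in 4 groups of 2 libraries: a nuclear fraction, a cytosolic fraction, lamina-proximal RNA from the APEX2 preparation without a stated fixative (native lamina) and lamina-proximal RNA from the preparation labelled PFA, the usual abbreviation of the fixative paraformaldehyde (PFA lamina). Cells of every group, fractions included, were asynchronous and carried the transfected lamin B1 fusion. No untransfected or unlabelled library is among the groups, and nothing says whether the 2 libraries of a group came from separate cultures, so p-values measure the spread between these libraries, which may be technical. These are bulk samples, so fewer cells with an RNA and less of that RNA per cell cannot be told apart.

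Actin forms the thin filaments that shape the cell cortex and drive movement, and it also enters the nucleus as a monomer. Alpha- and beta-tubulin pair as dimers that polymerise into microtubules, and gamma-tubulin sits in ring complexes that start new microtubules. Both families need the chaperonin CCT and prefoldin to fold. The mRNAs are polyadenylated and translated on cytosolic ribosomes, and free tubulin dimers trigger the decay of tubulin mRNAs during their translation. ACTB and ACTG1 encode nearly identical proteins, as do the members of each tubulin class, so reads from shared coding sequence are hard to place and the split between close copies is uncertain.

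The libraries held 2321291 to 8557777 counts each, PFA lamina replicate 2 the fewest. The 5 markers of HEK293-type cells summed to between 98.6 and 438 normalised CPM (counts scaled to library size after TMM correction) in the 8 libraries, with PAX2 at 0 in cytosolic replicate 2. Markers of K562, another line of the series, summed to between 2.41 and 5.30 CPM, with HBG1 and HBG2 at 0 in every library. Markers of HCT116, the colorectal line used for the domain maps, summed to between 20.5 and 48.8 CPM, with CDX2 between 9.34 and 48.4 CPM. PFA lamina replicate 1 stood apart from its partner: its log2 CPM correlated across genes at 0.924 with PFA lamina replicate 2 but at 0.962 and 0.957 with the cytosolic libraries. MALAT1, a nuclear-retained long RNA, stood at 595 CPM in that library and at 3079 CPM in PFA lamina replicate 2, against 10962 and 16522 CPM in the nuclear and 795 and 974 CPM in the cytosolic libraries. Calls at the PFA lamina against each fraction are therefore given with and without replicate 1.

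The 10 genes together made up a larger share of the cytosolic than of the nuclear libraries, and the lamina libraries lay between. Nuclear replicates 1 and 2 gave them 0.127% (95% Wilson interval 0.124 to 0.129) and 0.160% (0.157 to 0.163) of all counts. The cytosolic replicates gave them 0.736% (0.730 to 0.742) and 0.813% (0.805 to 0.820). For the native lamina the shares were 0.379% (0.375 to 0.383) and 0.388% (0.383 to 0.393), and for the PFA lamina they were 0.368% (0.363 to 0.373) and 0.380% (0.372 to 0.388). These intervals cover counting error only. No library of one fraction overlapped the other fraction or the lamina, whereas the native and PFA preparations overlapped each other.

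Per kilobase of exonic length, the 2 actins stood at the top of the 10 genes in every group. This scaling allows for gene length but not for reads from sequence shared by close copies. In the nuclear fraction ACTG1 averaged 237 ± 62.5 and ACTB 210 ± 7.86 normalised CPM per kb (mean ± SD, n = 2), and in the cytosolic fraction they averaged 1306 ± 276 and 1174 ± 22.6. ACTB ranked between 14 and 99 and ACTG1 between 18 and 77 among all tested genes of a library, counted from the highest level per kb. The libraries of ACTB and ACTG1 overlapped in each of the 4 groups, so these neighbours did not differ beyond their spread, while both stood clear of the next gene, TUBB, in each group. TUBB is the main beta-tubulin of dividing cells. In the nuclear and cytosolic groups it averaged 94.97 ± 54.8 and 565 ± 315 CPM per kb. At the native and PFA lamina it averaged 199 ± 20.0 and 210 ± 28.1 CPM per kb. Its libraries stood clear of those of the gene below it at the native lamina only. Compared within a library, TUBB was above TUBA1B, the next gene, in both cytosolic libraries (342 against 316 and 788 against 603). So it was in both PFA lamina libraries (229 against 210 and 190 against 187). In the nuclear fraction the order of TUBB and TUBB4B changed between the libraries (56.2 against 68.2 and 134 against 80.8). TUBB4B and TUBA1B followed, in an order that overlapped in the nuclear, cytosolic and native lamina groups but not at the PFA lamina, where TUBA1B averaged 199 ± 16.1 and TUBB4B 146 ± 0.833. TUBA1A, TUBA1C and TUBG1 formed a middle tier, from 19.3 ± 7.50 CPM per kb for TUBG1 in the nuclear fraction to 122 ± 14.9 for TUBA1C in the cytosolic fraction. TUBB2B and TUBB2A, neighbours on chromosome 6, were lowest in every group, and TUBB2A did not overlap TUBB2B in any of them: it averaged 4.15 ± 1.42 against 9.23 ± 4.99 in the nuclear and 17.8 ± 0.360 against 36.1 ± 15.0 in the cytosolic fraction.

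**Figure D1:**
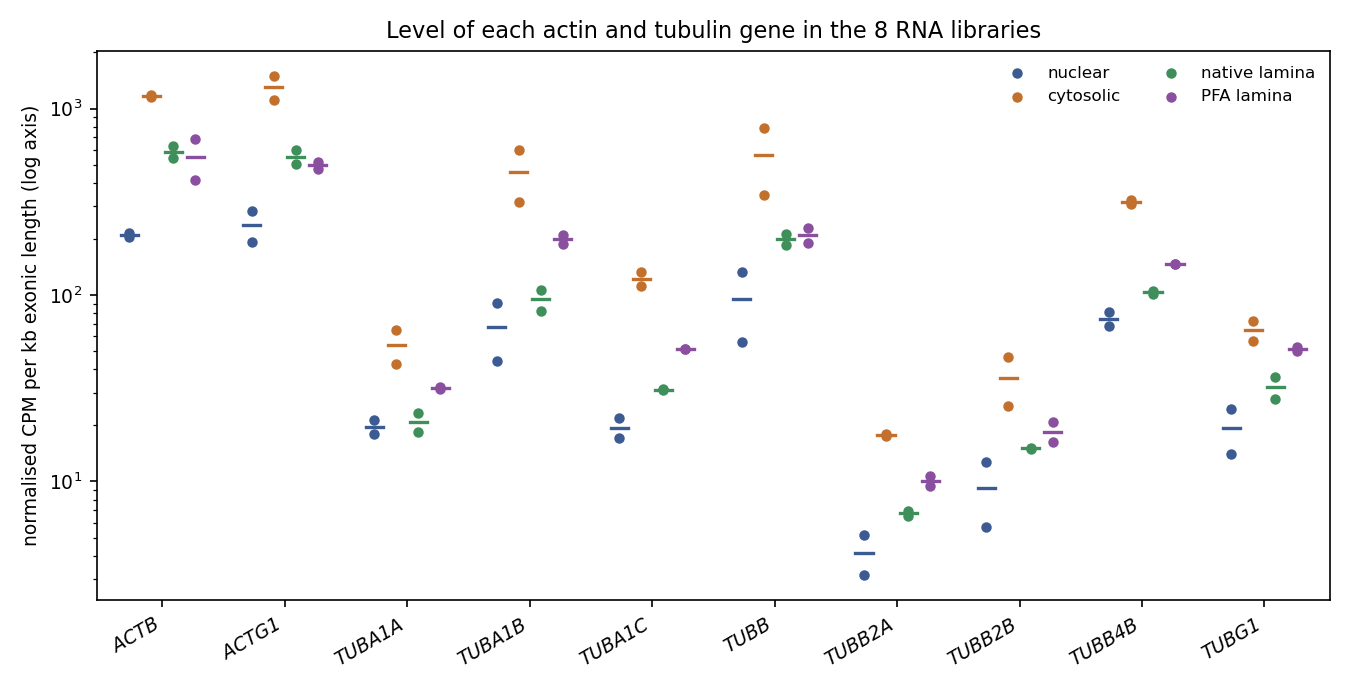
Normalised CPM per kb of exonic length (log axis) for the 10 genes, with points for the 2 libraries and a bar for the mean of each group. The cytosolic points lie above all other points of the same gene, the nuclear points lie lowest in all genes but TUBA1A and TUBA1B, where they overlap the native lamina, and the actins stand highest.

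The stretches just upstream of these genes are shown for 5 members because they differ in matches to elements that textbook accounts give to actin and tubulin promoters. These are the CArG box bound by serum response factor in actin genes, the TATA box and the CCAAT box. The TATA box was searched only as TATAAA, so other forms of it were not counted and would stay in lower case. Sequences are from RefSeq on build GRCh38.p14, cover 250 bases before to 50 bases after the annotated start, read 5′ to 3′ on the gene's strand, and carry matches in capitals. Of the 10 members 9 had an entry, 12 entries in all. ACTB had none, so its promoter was not searched for any of the motifs. ACTG1 (chr17:81512750-81513049, minus strand) holds 1 CArG box and 1 CCAAT, TUBB4B (chr9:137241037-137241336, plus strand) holds 3 CCAAT, TUBA1A (chr12:49189031-49189330, minus strand) holds 2, TUBA1B (chr12:49131346-49131645, minus strand) holds none of the motifs, and TUBB2A (chr6:3157495-3157794, minus strand) holds a TATAAA element upstream of its start.
ACTG1: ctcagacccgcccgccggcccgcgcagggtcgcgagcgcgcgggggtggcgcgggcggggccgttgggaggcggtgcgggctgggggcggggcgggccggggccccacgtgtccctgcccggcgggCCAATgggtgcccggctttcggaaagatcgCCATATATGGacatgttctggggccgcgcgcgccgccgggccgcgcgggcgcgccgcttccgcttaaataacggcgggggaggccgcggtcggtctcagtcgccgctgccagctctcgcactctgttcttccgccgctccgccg
TUBB4B: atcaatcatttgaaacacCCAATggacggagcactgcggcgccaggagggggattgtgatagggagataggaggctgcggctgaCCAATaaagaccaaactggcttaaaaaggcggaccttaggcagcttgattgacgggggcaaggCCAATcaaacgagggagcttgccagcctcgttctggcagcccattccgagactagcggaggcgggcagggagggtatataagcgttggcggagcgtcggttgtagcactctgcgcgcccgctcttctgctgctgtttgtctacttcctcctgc
TUBA1A: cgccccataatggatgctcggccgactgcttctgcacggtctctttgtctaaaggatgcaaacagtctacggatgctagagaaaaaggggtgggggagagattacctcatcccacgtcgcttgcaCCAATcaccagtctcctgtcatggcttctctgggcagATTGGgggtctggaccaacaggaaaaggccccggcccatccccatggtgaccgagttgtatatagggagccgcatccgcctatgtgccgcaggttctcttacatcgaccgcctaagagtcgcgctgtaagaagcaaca
TUBA1B: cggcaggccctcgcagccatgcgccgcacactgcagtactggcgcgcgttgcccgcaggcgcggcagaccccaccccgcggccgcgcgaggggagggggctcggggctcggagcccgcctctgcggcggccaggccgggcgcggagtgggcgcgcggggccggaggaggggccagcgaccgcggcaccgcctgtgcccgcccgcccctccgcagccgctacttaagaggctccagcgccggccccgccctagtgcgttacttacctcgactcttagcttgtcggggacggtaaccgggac
TUBB2A: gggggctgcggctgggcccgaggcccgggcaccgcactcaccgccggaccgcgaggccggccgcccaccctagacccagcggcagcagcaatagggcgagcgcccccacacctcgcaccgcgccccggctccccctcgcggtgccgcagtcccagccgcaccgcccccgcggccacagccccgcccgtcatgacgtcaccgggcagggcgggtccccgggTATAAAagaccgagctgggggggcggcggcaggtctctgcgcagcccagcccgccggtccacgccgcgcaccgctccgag
The CCAAT box was searched on both strands, so its reverse complement is in capitals where the match is on the other strand. It was present in an entry of 7 of the 9 member genes, and in 34.6% of 35116 promoter windows of 300 bases. By entry it was present in 9 of 12, but 2 of the TUBA1C entries overlap and hold the same site. The CArG box was present in 1 of the 9 member genes and in 1.29% of windows, and TATAAA in 1 entry and in 11.5% of windows. None of the matches overlaps another. TUBA1A and TUBA1B are included because they showed the smallest and the largest nuclear to cytosolic difference described next. A match is a description of letters, and no binding was measured.

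Every member had a higher normalised level in the cytosolic than in the nuclear libraries. These levels are relative within each library, so amounts of RNA per fraction or per cell were not compared. The test was edgeR's quasi-likelihood test with Benjamini-Hochberg adjustment over 16504 genes, and an adjusted p under 0.05 was a call. All 10 members were called lower, whereas 21.2% of all tested genes were called lower and 26.1% higher. The median log2 fold change was -2.28 over the members and 0.13 over all tested genes. Both nuclear libraries lay below both cytosolic libraries for all 10 members, as they did for 35.4% of all tested genes. No scaling alternative and no left-out library ended any of these 10 calls.

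Among the actins, ACTB (chromosome 7, bases 5566779 to 5570232 of hg19, minus strand, 6 merged exons) stood at 390 and 370 normalised CPM in the nuclear libraries and at 2157 and 2099 in the cytosolic libraries. Its log2 fold change was -2.49 ± 0.36 (SE, edgeR adjusted p = 0.000686), a normalised level 5.60-fold lower in the nuclear libraries. ACTG1 (chromosome 17, bases 79476997 to 79479892, minus strand, 6 merged exons) stood at 405 and 592 CPM in the nuclear and at 2337 and 3160 in the cytosolic libraries. Its log2 fold change was -2.46 ± 0.36 (edgeR adjusted p = 0.000708), close to that of ACTB. In both actins the groups were far apart compared with the distance between replicates.

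Among the alpha-tubulins, which lie within one cluster on chromosome 12, the distance between fractions was uneven. TUBA1B (bases 49521567 to 49525304, minus strand), the alpha-tubulin found in most cell types, stood at 77.5 and 159 CPM in the nuclear and at 554 and 1056 in the cytosolic libraries, a log2 fold change of -2.77 ± 0.41 (edgeR adjusted p = 0.000738). TUBA1C (bases 49621709 to 49667121, plus strand) stood at 36.1 and 46.4 CPM against 236 and 281, a log2 fold change of -2.65 ± 0.28 (adjusted p = 0.000347), and it ranked 13 of the 16504 tested genes by p. TUBA1A (bases 49578578 to 49583107, minus strand), an isotype prominent in developing neurons, stood at 44.5 and 53.1 CPM against 105 and 160. Its log2 fold change of -1.44 ± 0.29 (adjusted p = 0.00230) was the smallest of the members, though whether it differed from that of TUBA1B was not tested. In TUBA1B replicate 2 was well above replicate 1 in each fraction, and the groups still did not overlap.

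Among the beta-tubulins, TUBB (chromosome 6, bases 30687978 to 30693203, plus strand) stood at 175 and 417 CPM in the nuclear and at 1067 and 2458 in the cytosolic libraries, a log2 fold change of -2.57 ± 0.47 (edgeR adjusted p = 0.00148). Its SE was the largest of the members, and replicate 2 was the higher one in each fraction. TUBB4B (chromosome 9, bases 140135711 to 140138159, plus strand), a beta-tubulin of broad expression that also enters cilia, stood at 108 and 129 CPM against 517 and 490 (log2 fold change -2.09 ± 0.28). TUBB2A (chromosome 6, bases 3153901 to 3157783, minus strand), an isotype best known from neurons, stood at 9.03 and 5.50 CPM against 31.6 and 30.7 (-2.09 ± 0.35). TUBB2B (chromosome 6, bases 3224495 to 3227968, minus strand), its close copy and also known from developing brain, stood at 11.5 and 25.8 CPM against 51.5 and 94.3 (-1.97 ± 0.40). The adjusted p of these 3 genes lay at 0.000584, 0.000968 and 0.00216. TUBG1 (chromosome 17, bases 40761358 to 40767256, plus strand), the gamma-tubulin that caps the minus ends of microtubules, stood at 27.2 and 47.9 CPM against 110 and 142, a log2 fold change of -1.75 ± 0.32 (edgeR adjusted p = 0.00147). The size of the difference thus ran from 2.72-fold lower in TUBA1A to 6.82-fold lower in TUBA1B.

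**Figure D2:**
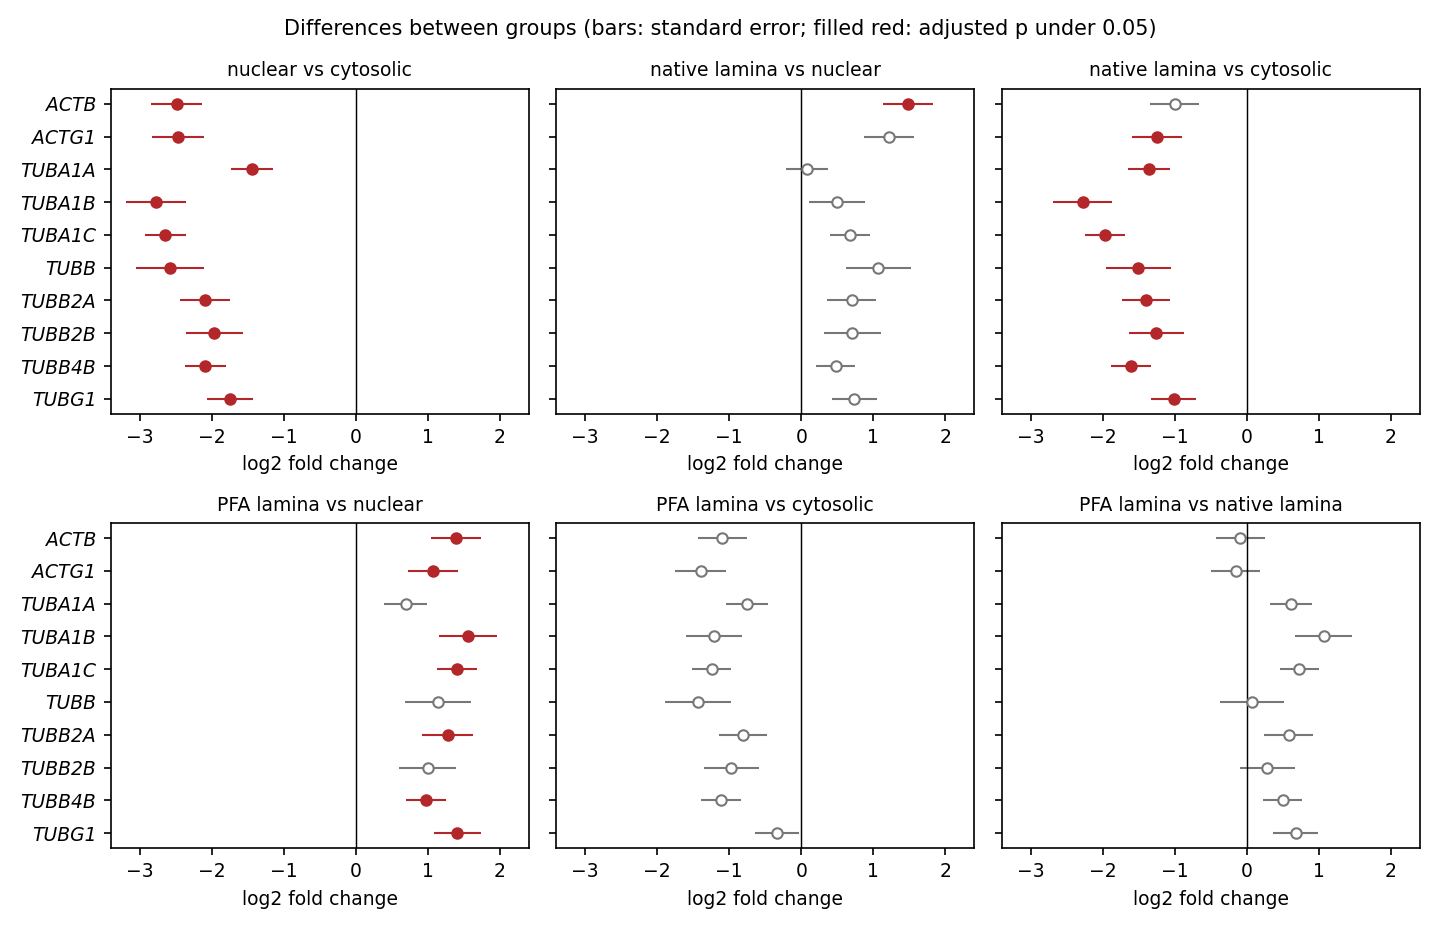
Log2 fold change (x axis) with its standard error for the 10 genes in the 6 comparisons between groups, filled red where the edgeR adjusted p was under 0.05. All 10 genes were called between the fractions, 1 and 7 between each lamina preparation and the nucleus, 9 and 0 between each preparation and the cytosol, and 0 between the preparations.

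At the native lamina the actins stood furthest above the nuclear fraction, and ACTB was the only member called. The comparison asks whether an RNA has a higher normalised level in the lamina-proximal RNA than in the nuclear fraction. ACTB stood at 1144 and 980 CPM, against 390 and 370 in the nucleus, a log2 fold change of 1.48 ± 0.35 (edgeR adjusted p = 0.0291, 2.80-fold). ACTG1 stood at 1061 and 1261 CPM, a log2 fold change of 1.22 ± 0.35 that just missed the threshold (adjusted p = 0.0502). So 1 of 10 members was called higher and none lower, against 3.87% and 3.44% of all tested genes. The median log2 fold change was 0.70 over the members and -0.07 over all genes. Leaving out any 1 of the 4 libraries compared ended the ACTB call, with adjusted p up to 0.214 over all alternatives, while its log2 fold change stayed between 1.33 and 1.76. Calls over all genes fell as well in those fits, from 639 higher and 568 lower to at most 134 and 45. With PFA lamina replicate 1 or replicate 2 left out, ACTB and ACTG1 were called in each fit, beside at least 1599 genes called higher and 2174 lower.

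The tubulins were nearer to the nuclear level at the native lamina. TUBB stood at 577 and 665 CPM, with a log2 fold change against the nucleus of 1.07 ± 0.45 and an edgeR adjusted p of 0.139. TUBA1A stood at 57.8 and 45.4 CPM, overlapping the nuclear 44.5 and 53.1, with a log2 fold change of 0.08 ± 0.29 whose sign turned under upper-quartile scaling. TUBA1B stood at 187 and 145 CPM and overlapped its nuclear libraries as well (0.49 ± 0.39). TUBA1C stood at 66.3 and 65.4 CPM, TUBB4B at 161 and 168, TUBB2A at 11.4 and 12.2, TUBB2B at 30.7 and 30.2, and TUBG1 at 70.7 and 54.2. For 8 of the 10 members, all but TUBA1A and TUBA1B, both native lamina libraries lay above both nuclear libraries, which held for 28.2% of all tested genes.

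Against the cytosolic fraction the native lamina was lower for all members. Of the 10 members 9 were called lower, against 6.77% of all tested genes called lower and 6.99% higher. ACTB was the exception, with a log2 fold change of -1.002 ± 0.342 (edgeR adjusted p = 0.0664). The alpha-tubulins TUBA1B (-2.28 ± 0.41, adjusted p = 0.00735) and TUBA1C (-1.97 ± 0.28, adjusted p = 0.00427) were furthest below the cytosol, and TUBG1 was nearest among the called members (-1.01 ± 0.31, adjusted p = 0.0466). The remaining 6, which are ACTG1, TUBA1A and the 4 beta-tubulins, lay between -1.61 and -1.24. Both native lamina libraries were below both cytosolic libraries for all 10 members and for 28.4% of all tested genes. Without cytosolic replicate 2, or without native lamina replicate 2, the calls fell to TUBA1C and TUBB4B, and without cytosolic replicate 1, or without native lamina replicate 1, to TUBA1A, TUBA1B, TUBA1C and TUBB4B. Over all genes the calls fell too, from 1154 higher and 1117 lower to 77 and 84 without cytosolic replicate 2, 185 and 108 without native lamina replicate 2, 49 and 196 without cytosolic replicate 1, and 536 and 616 without native lamina replicate 1.

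At the PFA lamina 7 of the 10 members were higher than in the nuclear fraction and none was lower, against 9.63% of all tested genes called higher and 7.81% lower. The median log2 fold change was 1.21 over the members and -0.04 over all genes. TUBA1B stood at 368 and 328 CPM, against 77.5 and 159 in the nucleus, a log2 fold change of 1.56 ± 0.40 (edgeR adjusted p = 0.0222). TUBG1 stood at 97.6 and 102 CPM (1.41 ± 0.32, adjusted p = 0.0149) and TUBA1C at 109.02 and 108.9 CPM (1.40 ± 0.28, adjusted p = 0.00914), which are 2.66-fold and 2.64-fold the nuclear means. In each of these 3 genes the PFA lamina replicates lay close together. ACTB stood at 1244 CPM in replicate 1 and at 748 in replicate 2, the widest gap between PFA lamina libraries among the members (1.39 ± 0.35, adjusted p = 0.0204). ACTG1 stood at 1091 and 995 CPM and passed narrowly (1.07 ± 0.35, edgeR adjusted p = 0.04996). TUBB2A at 18.7 and 16.6 CPM (1.28 ± 0.35) and TUBB4B at 232 and 234 CPM (0.98 ± 0.27) were called too, whereas TUBB at 715 and 592 CPM (1.14 ± 0.45), TUBB2B at 32.7 and 41.9 CPM (1.00 ± 0.40) and TUBA1A at 77.8 and 79.8 CPM (0.69 ± 0.29) were not.

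Both PFA lamina libraries lay above both nuclear libraries for all 10 members, and for 30% of all tested genes. Without PFA lamina replicate 1 the calls against the nucleus fell from 7 to TUBA1C and TUBG1, and over all genes they fell to 2.70% higher and 1.48% lower. Without nuclear replicate 2 the members called were TUBA1B, TUBA1C and TUBG1, beside 1.82% of all genes higher and 0.852% lower. Without nuclear replicate 1 no member was called, and of 16949 genes 1 was called higher and 12 lower. Without PFA lamina replicate 2 there were 8 members, beside 15.9% of all genes higher and 18.8% lower. The members' counts thus moved with those of all genes. Against the cytosolic fraction no member was called, with adjusted p from 0.0542 for TUBA1C to 0.551 for TUBG1, and over all genes 0.527% were called higher and 0.145% lower. The unadjusted p was under 0.05 for 9 of the 10 members, all but TUBG1, and the Wald test of DESeq2 called 6 members lower, beside 2.61% of all genes lower and 3.34% higher. Both PFA lamina libraries lay below both cytosolic libraries for all 10 members and for 23% of all tested genes. The log2 fold changes had a median of -1.10 and ran from -1.43 ± 0.46 in TUBB to -0.34 ± 0.31 in TUBG1. Without PFA lamina replicate 1, ACTB, ACTG1, TUBA1C, TUBB and TUBB4B were called lower than in the cytosol, and calls over all genes rose to 9.74% higher and 6.67% lower. Replicate 1 is the library whose MALAT1 level lay below the cytosolic values, and the part of that in these results was not tested.

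Between the native and the PFA lamina no member was called, and no gene of the 16504 was (0% higher and 0% lower), while 1821 genes had an unadjusted p under 0.05. These counts over all genes depended on 1 library and on the filter: without PFA lamina replicate 2 there were 309 genes called higher and 433 lower, and with no filter 123 and 149, with no member among them in either fit. Without PFA lamina replicate 1 no gene was called. DESeq2 called 73 genes higher and 150 lower at the PFA lamina, no member among them. For 7 of the 10 members, all but ACTB, ACTG1 and TUBB, both PFA lamina libraries lay above both native lamina libraries, which was so for 19.9% of all tested genes. TUBA1B had a log2 fold change of 1.07 ± 0.39 (edgeR adjusted p = 0.368), TUBA1C of 0.73 ± 0.27 (adjusted p = 0.377) and TUBG1 of 0.68 ± 0.31 (adjusted p = 0.451). ACTB (-0.09 ± 0.34), ACTG1 (-0.15 ± 0.34) and TUBB (0.07 ± 0.45) were near 0. The comparisons of each preparation with the nucleus share the nuclear libraries, and those with the cytosol share the cytosolic libraries, so the values are given side by side without a measure of likeness.

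Within families, the split of counts differed between fractions for TUBA1A and between replicate numbers for the actins. The splits are described without a test. An exact 2-sided permutation test of 2 against 2 libraries cannot give a p below 0.333. TUBA1A held 28.1% (95% Wilson interval 25.5 to 31.0) and 20.6% (18.6 to 22.7) of the counts of the 3 alpha-tubulins in the nuclear libraries. In the cytosolic libraries it held 11.8% (11.02 to 12.6) and 10.7% (10.01 to 11.4). At the native lamina its share was 18.6% (17.2 to 20.0) and 17.8% (16.04 to 19.6), and at the PFA lamina 14.0% (12.8 to 15.3) and 15.5% (13.7 to 17.4). The libraries of the 4 groups did not overlap in this share, which was highest in the nucleus and lowest in the cytosol. The Wilson intervals overlapped in part between the nucleus and the native lamina and between the native and the PFA lamina. TUBA1B held the largest share of alpha-tubulin counts in all 8 libraries, from 49.0% in nuclear replicate 1 to 70.6% in cytosolic replicate 2.

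ACTB held 49.0% and 38.5% of the actin counts in nuclear replicates 1 and 2 and 48.0% and 39.9% in the cytosolic replicates. Its share was 51.9% and 43.7% for the native and 53.3% and 42.9% for the PFA preparation. In all 4 groups the library numbered 1 had the higher share, and the 4 groups overlapped. The 95% Wilson intervals reached at most 1.41 points from the share for the actins, 3.07 for the alpha-tubulins and 2.20 for the beta-tubulins. The count ratio of ACTB to ACTG1 thus ran from 0.625 in nuclear replicate 2 to 1.14 in PFA lamina replicate 1, and the log2 ratio in replicate 1 exceeded that in replicate 2 by 0.47 to 0.62. TUBB held from 57.6% to 80.0% of the beta-tubulin counts, with both extremes in the fractions, and TUBB4B from 15.95% to 35.7%. In the nuclear and cytosolic fractions TUBB took 14.7 and 15.96 percentage points more in replicate 2 than in replicate 1. TUBB2A held from 0.954% to 2.97% and TUBB2B from 3.07% to 4.74%. The ratio of alpha- to beta-tubulin counts was 0.399 and 0.291 at the native lamina, below the 6 other libraries, which ran from 0.448 to 0.584.

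**Figure D3:**
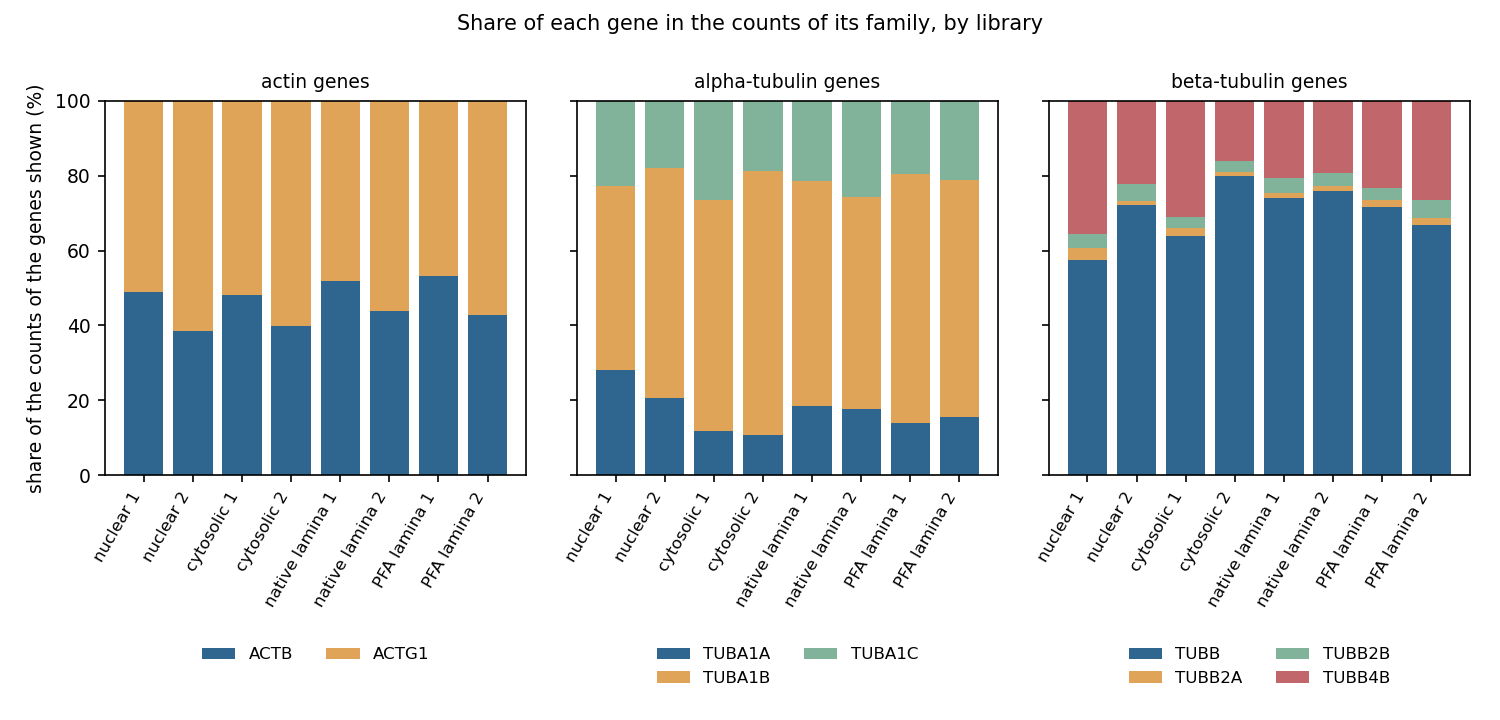
Share of each gene (%) in the summed counts of its family in each of the 8 libraries, with stacked bars that add to 100%. The TUBA1A part shrinks from 28.1% and 20.6% in the nuclear to 11.8% and 10.7% in the cytosolic libraries, and the ACTB part is larger in the library numbered 1 of every group.

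Genes that act on actin or tubulin mostly shared the lower nuclear level. Over all tested genes 21.2% were called lower in the nucleus and 26.1% higher. Of 34 regulators of actin monomers and filaments, all tested, 24 were called lower and 1 higher (median log2 fold change -1.46). TMSB10, a thymosin that binds actin monomers, had a log2 fold change of -2.87 ± 0.36, and ARPC5, a subunit of the Arp2/3 complex that branches filaments, of -2.79 ± 0.30. VCL, which encodes the adhesion protein vinculin, was the 1 regulator called higher (1.21 ± 0.31). Of 19 genes for folding actin and tubulin, 15 were called lower and none higher (median -1.82), among them the prefoldin subunits PFDN2 (-2.64 ± 0.39) and VBP1 (-2.17 ± 0.46). Of 9 genes of the gamma-tubulin ring complex, 5 were called lower and 1 higher (median -0.84). The small subunits MZT2A (-2.12 ± 0.37) and MZT2B (-2.10 ± 0.38) were lower, and TUBGCP6, a large scaffold subunit, was higher (2.28 ± 0.46). Of 5 genes for nuclear actin transport and actin-controlled transcription, XPO6, the exporter of actin from the nucleus, was called lower (-1.08 ± 0.32) and none was called higher. The fraction markers moved as their names say: MALAT1 was higher in the nucleus (3.96 ± 0.71), and GAPDH (-2.81 ± 0.56) and EEF1A1 (-1.98 ± 0.34) were lower.

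The other actins and tubulins were called in both directions, as was so over all tested genes. Of 5 other actin genes 2 passed the filter, and ACTA1, the actin of skeletal muscle, was called higher in the nucleus (3.06 ± 0.86), with 34 and 42 nuclear against 6 and 3 cytosolic counts. Of 14 other tubulin genes 10 passed the filter, with 3 called higher and 2 lower in the nucleus. Of all tested genes 26.1% were called higher there and 21.2% lower. TUBB4A (-2.95 ± 0.33) and TUBB6 (-1.55 ± 0.28) were lower, whereas TUBB1, the beta-tubulin of platelets, was higher (3.41 ± 0.52). TUBA3D had 24 and 32 nuclear counts and none in the cytosol. Taking 3 counts per library as the floor, its normalised level was at least 8.92-fold higher in the nuclear libraries. TUBA8 was the other gene called higher, with 43 and 27 nuclear against 6 and 3 cytosolic counts. ACTA1, TUBA3D, TUBA8 and TUBB1 have few counts, at most 119 in a library, whereas TUBB4A and TUBB6 reached 442 and 985. Reads from the members could reach any of these genes through shared sequence, and their part was not tested.

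At the lamina fewer genes of the related lists were called than between the fractions, as was so for all tested genes, of which 3.87% were called higher and 3.44% lower at the native lamina against the nucleus and 9.63% and 7.81% at the PFA lamina. Against the nucleus, the native lamina had 4 actin regulators called higher and none lower (median log2 fold change 0.45), ARPC5 (1.87 ± 0.29) and ACTR2 (1.76 ± 0.34), both of the Arp2/3 complex, leading them. Of the folding genes TBCC, a tubulin cofactor, was called higher (1.13 ± 0.32), no gene of the gamma-tubulin ring complex was called, and TUBB4A was higher (1.56 ± 0.32) while TUBB1 was lower (-2.27 ± 0.47). At the PFA lamina 12 regulators, 10 folding genes and 3 genes of the gamma-tubulin ring complex were called higher than in the nucleus and none lower, with medians of 0.78, 1.12 and 0.43. ARPC5 (1.89 ± 0.29), the myosin light chain gene MYL12B (1.72 ± 0.34), PFDN2 (1.77 ± 0.38), TBCC (1.63 ± 0.32), MZT2B (1.80 ± 0.38), and MZT2A (1.80 ± 0.37) were among them. XPO6 (1.14 ± 0.32) and TUBB4A (2.37 ± 0.33) were called higher there too, and TUBB1 (-2.21 ± 0.49) lower. Leaving out PFA lamina replicate 1 lowered the calls against the nucleus over all tested genes, as given above, and in these lists. Without PFA lamina replicate 1 the counts fell to 2 regulators (ARPC5 and MYL12B), 1 folding gene (TBCC) and 2 ring genes (MZT2A and MZT2B), with medians of 0.41, 0.62 and 0.39. TUBB4A was still called in that fit (2.05 ± 0.36), whereas XPO6 (0.96 ± 0.35, edgeR adjusted p = 0.123) and TUBB1 (-1.80 ± 0.57, adjusted p = 0.0763) were not. Against the cytosol the native lamina had 15 regulators, 7 folding genes and 3 genes of the ring complex called lower. Of these lists 1, none and 1 were called higher. Of all tested genes 6.77% were called lower there and 6.99% higher. TUBB4A (-1.39 ± 0.30) and TUBB6 (-0.91 ± 0.27) were called lower there as well. At the PFA lamina TMSB10 (-1.99 ± 0.34) was the 1 gene of these lists called against the cytosol. Of all tested genes 0.145% were called lower and 0.527% higher in that comparison. Without PFA lamina replicate 1, 19 regulators, 11 folding genes and 1 ring gene (MZT1) were called lower there, and TUBGCP6, ACTA1 and TUBA3D higher, beside the 9.74% and 6.67% of all genes called higher and lower in that fit. In the 1 PFA lamina library left, TUBA3D had 5 counts and ACTA1 13. The cytosolic libraries had 0 and 0 for TUBA3D and 6 and 3 for ACTA1. MALAT1 was lower at the PFA lamina than in the nucleus (-2.90 ± 0.68, and -2.15 ± 0.56 without replicate 1). Its part in the numbers of genes called was not tested.

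**Figure D4:**
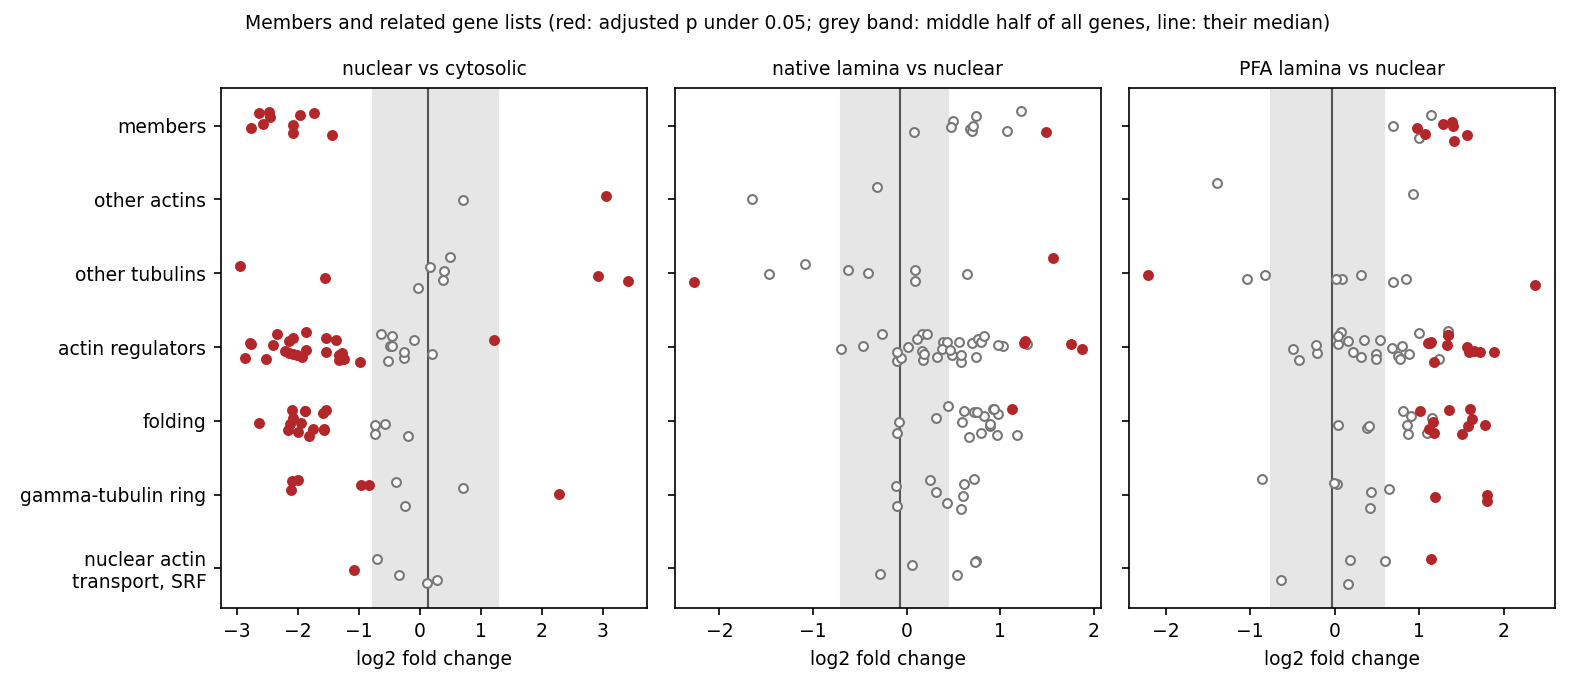
Log2 fold change (x axis) of the members and of the 6 related lists in 3 comparisons, filled red where the edgeR adjusted p was under 0.05; the grey band spans the lower to the upper quartile of all tested genes and the line marks their median. The members, the actin regulators and the folding genes lie mainly below the band in the first panel, and TUBA3D, with no cytosolic count, is left out.

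Across the 8 libraries the members' log2 CPM varied together, as described by Pearson's r over 45 pairs of members, from 0.767 for ACTB with TUBA1A to 0.993 for TUBA1C with TUBB4B, with a median of 0.899. The points share the 4 groups, so the difference between fractions enters every r, and 840 of 11315 genes with at least 50 counts on average had an r above 0.9 with ACTB. The nearest profile to ACTB was that of MAPRE1, which encodes the microtubule plus-end protein EB1 (r = 0.994), then RCC2 and MTMR12 (both 0.990). For ACTG1 the nearest were PRPS2 (0.989), CITED2 (0.989) and WDTC1 (0.986), TOB1 (0.988) and GRHPR (0.986) were among the nearest to TUBB, and for TUBG1 they were COPE (0.995), HEBP1 (0.992) and PCNA (0.991).

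The 10 genes were also placed against the deposited lamina-associated domains of HCT116, a different cell line, on hg19. All 10 lay outside the domains of G1, S and G2, where 7.94%, 6.81% and 9.50% of 27567 genes touched a domain. The nearest was ACTB, with a domain 1067 kb away in G1 and S and 967 kb away in G2. TUBB4B was the farthest in G1 and G2, at 17036 kb, and TUBB2A in S, at 19042 kb. The domain lists carry no replicates, and the RNA was not measured in HCT116.

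The counting adds 2 limits to single members. The exons of TUBB4B share 125 bases with FAM166A and those of TUBG1 share 88 bases with RETREG3, and a read in such a stretch was counted for both genes. TUBB is annotated on 8 copies of its region, the chromosome and 7 alternative haplotypes, so its level per kb used the 3117 exonic bases of chromosome 6 in place of the deposited length of 24937.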

How the data were processed

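RNA was measured in 8 HEK293FT libraries in 4 groups of 2. The authors deposited raw read counts per gene and the exonic length of each gene in bases, made with featureCounts 1.5.2 on hg19 RefFlat genes, per the file headers, which show that strand was ignored, that a read over several genes counted for each of them and that no option for multi-mapping reads was set. The header of cytosolic replicate 1 carries the output name of nuclear replicate 1 but the input of cytosolic replicate 1. It was kept as labelled, since its correlation across genes (log2 CPM) was 0.974 with the other cytosolic library and 0.802 with nuclear replicate 1. The submitters' processing notes name TopHat2 2.1.1 and Bowtie2 2.3.2 for the series. The deposited domain lists give start and end positions in bases, per the file headers and values, with no score.

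Counts were tested with edgeR 4.0.16 in R 4.3.3: filterByExpr by group, TMM factors, 1 quasi-likelihood fit of all 8 libraries without a block, 6 contrasts, Benjamini-Hochberg over 16504 genes and a threshold of 0.05. The SE is the log2 fold change divided by the square root of the F statistic. Correlations used log2(CPM + 1). The pipeline was tested on simulated counts. Shares carry 95% Wilson intervals, and 3 counts were the floor (0.351 to 1.29 CPM). Without molecular identifiers PCR copies cannot be told from separate molecules, and both reflect counting error alone. Alternatives were other scalings, other filters, fits restricted to the 4 libraries of a contrast, DESeq2 1.42.0 with its Wald test, the replicate number as a block, and dropping each library in turn.

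The members, related lists and rules were chosen with earlier results of these data known. From each list, up to 2 called genes in each direction were named. TUBA8 was named after its values were seen. The K562 libraries, the input, pull-down and chromatin libraries and protein sequences were not used here. One gene that the rule for similar profiles names and one marker gene are not reported here.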

Additional observations from a re-analysis of the deposited data

How the results depend on the processing

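The nuclear to cytosolic calls held for all 10 members under every alternative run. For the other comparisons the count of called members moved, and only some alternatives are listed. Calls over all genes moved as well and are given after the member counts, with the scalings last and there the reported fit first. For the native lamina against the nucleus (1 called) it was 5 with total counts, 3 with no filter, 2 with DESeq2, 5 in the fit of only the 4 libraries compared and 0 to 2 without 1 library. Against the cytosol (9 called) it was 4 with total counts and 2 to 10 without 1 library. For the PFA lamina against the nucleus (7 called) it was 1 in the fit of only the 4 libraries compared and 0 to 8 without 1 library. Against the cytosol (0 called) it was 7 with no filter, 1 with at least 10 counts in every library, 6 with DESeq2 and 0 to 5 without 1 library. Between the preparations it was 0 throughout. Over all genes, the fit of only the 4 libraries compared called 12.5% higher and 14.6% lower for the native lamina against the nucleus. For the PFA lamina against the nucleus it called 2.19% and 1.54%. With no filter 5.24% and 6.21% were called for the native lamina against the nucleus, and with DESeq2 5.83% and 4.67%. For the PFA lamina against the cytosol it was 4.18% and 2.27% with no filter. With at least 10 counts in every library it was 1.91% and 0.598% there. Where leaving out a library left a group with 1 library, that library was assumed to vary like the other groups. Fewer samples or genes enter several of these fits; beyond that the cause was not tested.

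Replicate differences correlated between groups at -0.03 to 0.35 across genes, above 0.1 in 4 of 6 pairs of groups. The labels do not say what libraries of 1 number share, and they were not treated as paired. With a replicate block, the native lamina had 2 members called against the nucleus (ACTB and ACTG1) and the PFA lamina 3 against the cytosol (ACTG1, TUBA1C and TUBB4B), with 9 for the PFA lamina against the nucleus and 10 in the other 2 comparisons that had calls. Over all genes, the fit with a block called 5.82% higher for the native and 11.4% for the PFA lamina against the nucleus. Against the cytosol it called 9.06% lower for the native lamina, 0.757% for the PFA lamina and 22.8% for the nucleus. The list counts without PFA lamina replicate 1 were added after seeing the data.

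Of 960 member values under an alternative, 834 kept direction and side of the threshold, 50 passed it newly, 67 no longer passed it and 9 changed sign, all of these in values that had not been called. TUBA1A at the native lamina against the nucleus was -0.064 with upper-quartile factors, -0.023 with at least 10 counts in every library and -0.089 to 0.260 without 1 library. Between the preparations ACTB was -0.52 to 0.23 without 1 library, and TUBB was -0.051 with total counts and -0.088 to 0.204 without 1 library.

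The scaling shifted the centre of all genes: their median log2 fold change for the native lamina against the nucleus was -0.07 in the reported fit, 0.22 with total counts and -0.22 with upper-quartile factors. The genes called higher and lower there were 639 and 568 in the reported fit, 1656 and 237 with total counts and 412 and 652 with upper-quartile factors. For the native lamina against the cytosol they were 1154 and 1117, then 1646 and 581, then 1445 and 945. For the PFA lamina against the nucleus they were 1589 and 1289, then 1891 and 511, then 1174 and 1604. Between the fractions they were 4314 and 3497 in the reported fit and 5248 and 2519 with upper-quartile factors. PFA lamina replicate 2 has the fewest counts, 2321291. Leaving it out took all genes called at the PFA lamina against the cytosol from 111 to 34, and leaving out replicate 1 took them to 2869.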
